A study of Arabidopsis thaliana with 18 samples.

Results

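The genes described here are those of the Arabidopsis thaliana plastid genome, taken as every row of the deposited expression table whose identifier starts with ATCG. They made up 133 of the table's 33557 genes. The study sequenced RNA from whole 14-day-old seedlings, and the libraries used here came from plants held at 4 °C for 4 h. The groups were the mutant stch4-1 (3 libraries) and wild type (WT, 3 libraries), both in the Col-0 accession and on the same half-strength Murashige and Skoog medium with sucrose. The mutated gene, STCH4 or REIL2, codes for a counterpart of the yeast zinc-finger protein Rei1, a late maturation factor of the large cytosolic ribosomal subunit. The series' other 12 samples, from 0 h and 24 h, are not analysed here, so the comparison is between genotypes in the cold and says nothing of the response to cold. Libraries are called a, b and c within each genotype, letters that pair no stch4-1 library with a WT library.

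The plastid genome codes for a small set of proteins of the photosystems, the cytochrome b6f complex, ATP synthase, the NDH complex and Rubisco, for a part of the plastid ribosome, and for a bacterial-type RNA polymerase. Nuclear genes supply the other subunits, the sigma factors that direct that polymerase, a phage-type polymerase, and the proteins that cut, edit and protect plastid RNA. Plastid transcript levels depend on both transcription and RNA stability, and long poly(A) tails are not a stable feature of these RNAs. The RefSeq annotation of assembly TAIR10.1 lists 85 protein-coding, 7 rRNA and 37 tRNA genes in the plastid genome, but it does not carry the ATCG identifiers. Nuclear genes whose RefSeq notes cite an ATCG identifier were aligned with the plastid genome's genes, as protein or, for a pseudogene, as DNA. Names found in this way are given for 6 members. These are rpl20 (ATCG00660) and rpl2 (ATCG01310) of the plastid ribosome, clpP (ATCG00670) of the Clp protease, ndhK (ATCG00430) and ndhJ (ATCG00420) of the NDH complex, and cemA (ATCG00530), which codes for a protein of the plastid envelope. The files do not pair identifiers with names, so 4 others are given by identifier alone and the rest as counts and ranges.

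Values are FPKM, fragments scaled to transcript length and to library size, as the authors deposited them. REIL2 stood at 5.65, 5.44 and 5.80 FPKM in the stch4-1 libraries, against 31.2, 34.1 and 36.0 FPKM in the WT libraries, which is the direction that the labels give. FPKM keeps no total count, but the steps between low values gave relative depths of 1.21, 1.23 and 1.01 in stch4-1 a, b and c, and of 1, 1.43 and 1.24 in WT a, b and c. Summed over all genes, the tables held 947218 to 987059 FPKM in stch4-1 and 878394 to 919309 FPKM in WT. Defining markers of green tissue, such as light-harvesting proteins, summed to 33286 to 42865 FPKM in stch4-1 and 32597 to 40393 FPKM in WT. Limma called 0 of these 7 in either direction, where 32.6% of all genes tested were called. At an unadjusted p under 0.05, 1 was higher. Root markers were lower in stch4-1. They summed to 145 to 149.5 FPKM in stch4-1 and 191 to 199 FPKM in WT. Limma called 6 of 8 lower, where 14.0% of all genes tested were called lower. None of these 15 markers was listed at 0 in every library, and the part of root tissue in the plastid results was not tested. In whole seedlings, fewer cells of a type and less RNA per cell cannot be told apart.

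Of the 133 plastid genes, 50 were listed at 0 in all 6 libraries, 67 were above 0 in all 6, and 16 were above 0 in some. Plastid genes took 0.104%, 0.171% and 0.143% of summed FPKM in stch4-1 a, b and c, against 0.186%, 0.0363% and 0.0569% in WT a, b and c. That order does not separate the genotypes, because WT a was the highest of all. The sum in WT a rests on genes that other libraries did not show. A single gene stood at 737 FPKM in WT a and 221 FPKM in stch4-1 b, and was listed at 0 in the other 4 libraries. Another stood at 235 FPKM in WT a and was listed at 0 elsewhere. Both genes fell below the level filter of the test described next. A listed 0 may stand for an estimate that failed, there and in tested genes alike.

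When the sum was restricted to the 67 members above 0 in every library, a choice made after seeing the data, the genotypes no longer overlapped. The sum was 805, 1112 and 1085 FPKM in stch4-1 a, b and c, against 656, 225 and 477 FPKM in WT a, b and c. The 3 stch4-1 libraries thus stood above all 3 WT libraries, with WT b far below the other two. The ratio of the means, stch4-1 over WT, was 2.21 over these members and 1.63 over all 133.

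The test was limited to genes that reached 1 FPKM in 3 or more libraries, which kept 68 plastid members. Of these, 62 were above 0 in every library and 43 had 1 FPKM or more in every library. A pair of members reached 1 FPKM in all 3 stch4-1 libraries and in no WT library, so they passed only through the group where they were high. The reverse was seen in 0 members. The median over the 68 members was 4.68, 7.56 and 7.07 FPKM in stch4-1 a, b and c, against 4.04, 1.603 and 3.13 FPKM in WT a, b and c. All 3 stch4-1 medians were above all 3 WT medians, though stch4-1 a exceeded WT a by little.

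**Figure D1:**
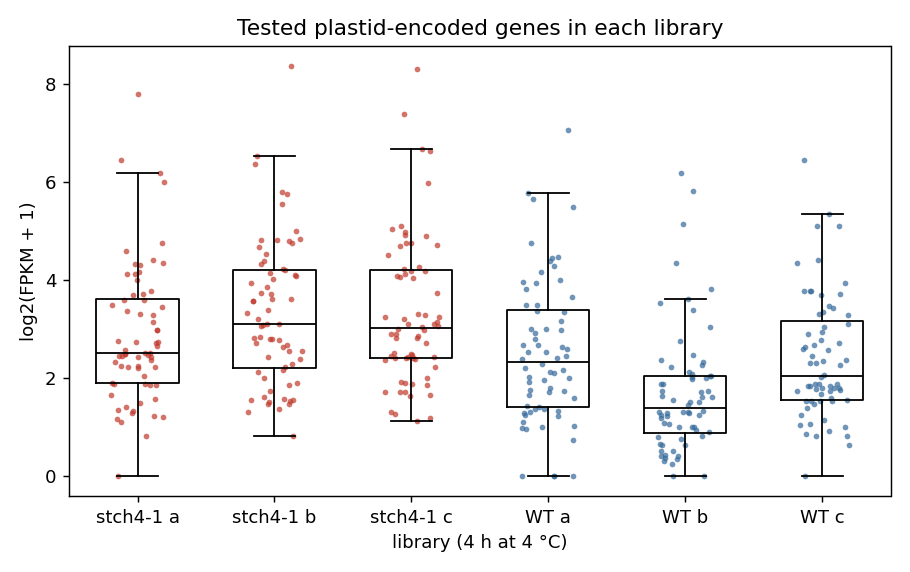
Levels of the 68 tested plastid-encoded genes in each library, as log2(FPKM + 1) on the vertical axis. Points are genes, boxes span the quartiles with the median as a line, and whiskers reach the furthest gene within the usual box-plot limit. The medians run from 2.51 to 3.10 in stch4-1 and from 1.38 to 2.33 in WT, where WT b is lowest.

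A large share of the tested plastid members had higher FPKM in stch4-1, and no tested member was called lower. No RNA selection step is stated, and whether FPKM here follows plastid transcript level was not tested. Of 68 members tested, 27 (39.7%) were called higher and 0 lower by limma at a Benjamini-Hochberg adjusted p under 0.05, where 32.6% of all 19289 genes tested were called, 18.5% higher and 14.0% lower. At an unadjusted p under 0.05, 45 members were higher and 0 lower, where 8510 of the 19289 genes passed in either direction. The log2 fold change, stch4-1 over WT on the log2(FPKM + 1) scale, was positive in 63 members and negative in 5. It ran from -0.42 to 3.27, with quartiles at 0.49 and 1.35 and a median of 0.97, against a median of 0.01 over all genes tested. The groups did not overlap in 38 members (55.9%), all higher in stch4-1, where 25.1% of all genes tested were higher without overlap and 22.7% lower without overlap. The 38 include the pair that passed the level filter only through stch4-1, whose groups could not overlap. Of that pair, 1 is among the 27 called higher. The members share a genome, a compartment and the library in which they were measured, so these 68 values are not 68 independent observations.

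WT b stood lowest in most members. It was the lowest of all 6 libraries in 54 of the 68 members, and the lowest of the WT libraries in 58. The median ratio of WT a to WT b was 2.55. WT b was also the most deeply sequenced library, and it did not stand apart in the number of genes above 0, 22967 against 22626 and 22869 in WT a and WT c. Without WT b, limma called 25 members higher and 0 lower, and the median log2 fold change was 0.64. The count of calls moved more without other libraries. Without WT a, the highest WT library, 41 members were called higher, and without stch4-1 b 17 were. Over all 19289 genes tested, limma called 3260 higher without WT b, 3033 without WT a and 2936 without stch4-1 b.

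The mutant libraries were spread less widely than the WT libraries. Across members, the median range between the 3 libraries of a genotype was 0.66 in stch4-1 and 1.11 in WT on the log2(FPKM + 1) scale. Over 10857 nuclear genes in the same span of levels the median ranges were 0.18 in stch4-1 and 0.17 in WT, so plastid members differed between libraries of a genotype by several times as much as nuclear genes did. Within stch4-1, library a was the lowest in 49 of 68 members. The first principal component of the gene-centred values held 58.1% of their variance, with loadings of 0.14, 0.43 and 0.46 for stch4-1 a, b and c and of -0.11, -0.73 and -0.19 for WT a, b and c. The members that differed most between WT a and WT b tended to be those that differed most between stch4-1 b and stch4-1 a (Spearman's rho of 0.50 across 68 members). Against stch4-1 c minus stch4-1 a the rho was 0.35, and against the stch4-1 mean minus WT c it was 0.29. In each pair the differences share no library but do share each member's level, which itself ran with the WT a to WT b difference (rho of 0.39).

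**Figure D2:**
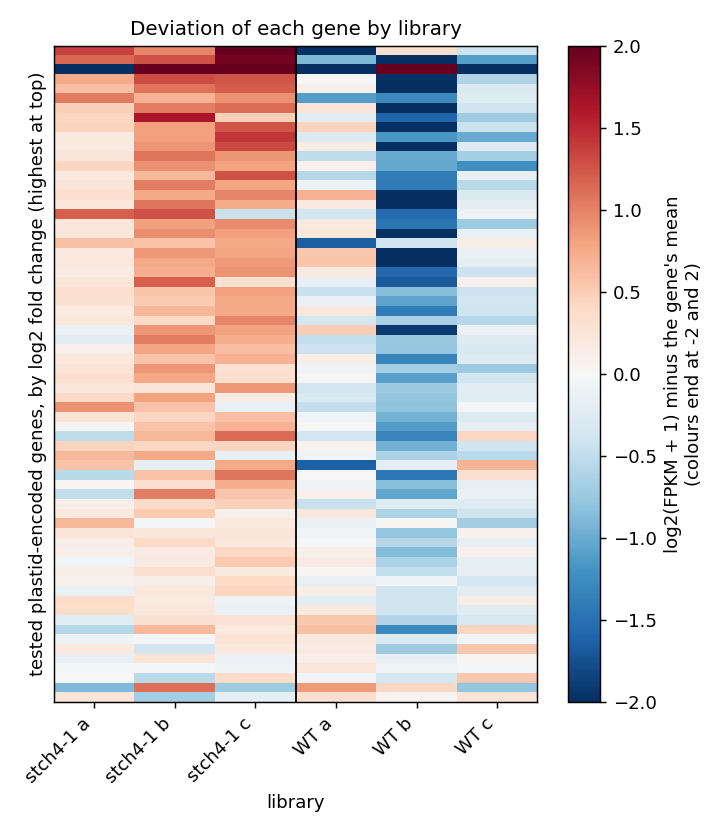
Deviation of each of the 68 tested plastid-encoded genes (rows) from its own mean, on the log2(FPKM + 1) scale, in each library (columns), with genes sorted by log2 fold change. Most rows are above their mean in stch4-1 b and c and lowest in WT b, which was the lowest library in 54 of 68 genes, while a few rows at the bottom show no such pattern.

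The difference was also described by level. Among the 22 members with a mean of 10 FPKM or more, the median log2 fold change was 1.27 and the median SE 0.55. Of these 22, 4 were called, all higher, a share near the 18.5% of all genes tested that were called higher. The counts in the other level groups stand against the same 18.5%. Among the 26 members between 2 and 5 FPKM the median was 0.95, the median SE 0.26 and the number called 15. Of 9 members between 5 and 10 FPKM, 4 were called, with a median of 0.89, and of 11 members under 2 FPKM, 4 were called, with a median of 0.64. The pseudocount of 1 compresses differences in the lowest of these groups. Across the 68 members, the fold change and the mean level had a Spearman's rho of 0.37. A further 16 members had a log2 fold change over 1 without passing the test, with a median SE of 0.59, against 15 that had one and passed.

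**Figure D3:**
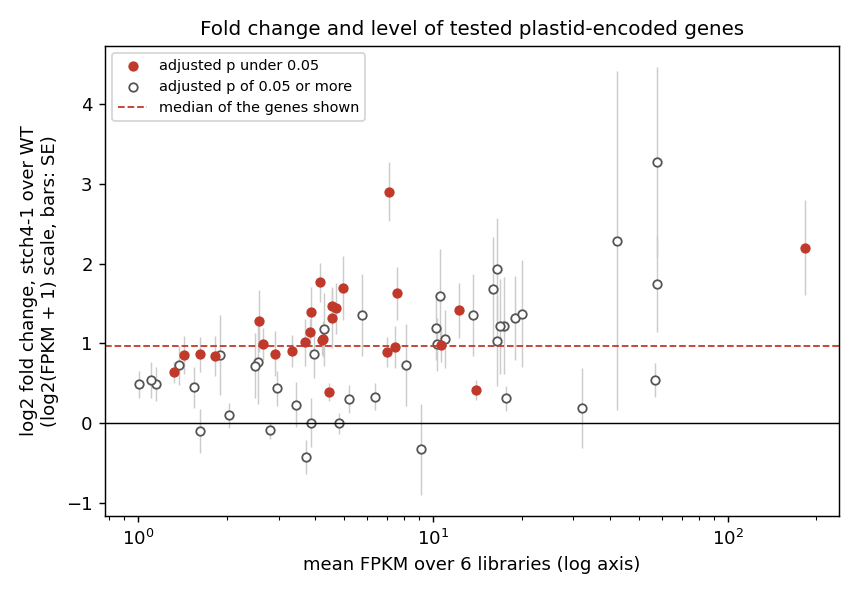
Log2 fold change of each tested plastid-encoded gene, stch4-1 over WT, against its mean FPKM on a log axis. Filled points passed the test, open points did not, bars are SEs and the dashed line is the median of 0.97. Of the 22 genes at 10 FPKM or more, 4 passed, and the median SE of these 22 (0.55) was the largest of the level groups.

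Both named ribosomal protein genes were called higher in stch4-1. For rpl20, which codes for a protein of the large plastid ribosomal subunit, FPKM was 3.13, 3.46 and 1.39 in stch4-1 a, b and c, against 1.501, 0.692 and 0.808 in WT a, b and c. The genotypes overlapped, since stch4-1 c was below WT a (limma log2 fold change 0.84, SE 0.25, adjusted p = 0.037). For rpl2, also of the large subunit, FPKM was 4.69, 4.81 and 6.05 in stch4-1, against 3.86, 4.03 and 3.19 in WT. The groups did not overlap, but the difference was the smallest among the 27 called members (limma log2 fold change 0.40, SE 0.11, adjusted p = 0.030). This gene lies in the inverted repeat, so the plastid genome holds a pair of copies. How the authors' counting shared reads between them is not given in the sources used here. The identifier of the other copy could not be told from those sources, so the call covers ATCG01310 alone. Library WT b was not the lowest for rpl2, unlike for rpl20.

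For clpP, the plastid-encoded catalytic subunit of the stromal Clp protease, FPKM was 8.75, 12.05 and 7.33 in stch4-1, against 5.04, 3.36 and 5.34 in WT. The groups did not overlap (limma log2 fold change 0.89, SE 0.19, adjusted p = 0.0097).

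Both named genes of the NDH complex, which passes electrons from ferredoxin to plastoquinone in cyclic electron flow around photosystem I, were higher in stch4-1. For ndhK, FPKM was 4.59, 5.57 and 6.86 in stch4-1, against 2.27, 1.47 and 2.32 in WT, and limma gave a log2 fold change of 1.14 (SE 0.16, adjusted p = 0.0015). For ndhJ, FPKM was 3.72, 3.88 and 6.41 in stch4-1, against 2.12, 1.42 and 2.485 in WT, with a limma log2 fold change of 0.90 (SE 0.20, adjusted p = 0.011). In both genes every stch4-1 library was above every WT library.

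For cemA, FPKM was 8.82, 12.3 and 8.80 in stch4-1, against 6.93, 2.68 and 5.04 in WT. The groups did not overlap, and WT b was again the lowest library (limma log2 fold change 0.95, SE 0.26, adjusted p = 0.025). Of the 6 named members, clpP, ndhK and ndhJ were called whichever library was left out. The call of cemA was lost without stch4-1 a, stch4-1 b or WT c (adjusted p up to 0.078), that of rpl20 without either of stch4-1 a and b or of WT b and c (adjusted p up to 0.116), and that of rpl2 without stch4-1 c, WT a or WT c (adjusted p up to 0.095).

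Among the unnamed members, ATCG00020 had the highest mean FPKM of those called. Its FPKM was 220, 327 and 315 in stch4-1, against 132, 19.3 and 86.7 in WT. All 3 stch4-1 libraries were higher than the WT libraries, which themselves were far apart (limma log2 fold change 2.20, SE 0.60, adjusted p = 0.025). Of the FPKM summed over the 67 members above 0 in every library, this gene alone took 27.3%, 29.4% and 29.0% in stch4-1, against 20.1%, 8.55% and 18.2% in WT. Its call was lost when stch4-1 a, b or c was left out (adjusted p of 0.052 to 0.071). ATCG00710 had the largest log2 fold change among called members. It stood at 10.3, 11.3 and 18.1 FPKM in stch4-1, against 1.70, 0 and 1.35 FPKM in WT, where it was listed at 0 in WT b. The groups were far apart (limma log2 fold change 2.90, SE 0.37, adjusted p = 0.00097), and the call held whichever library was left out (adjusted p up to 0.0045).

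**Figure D4:**
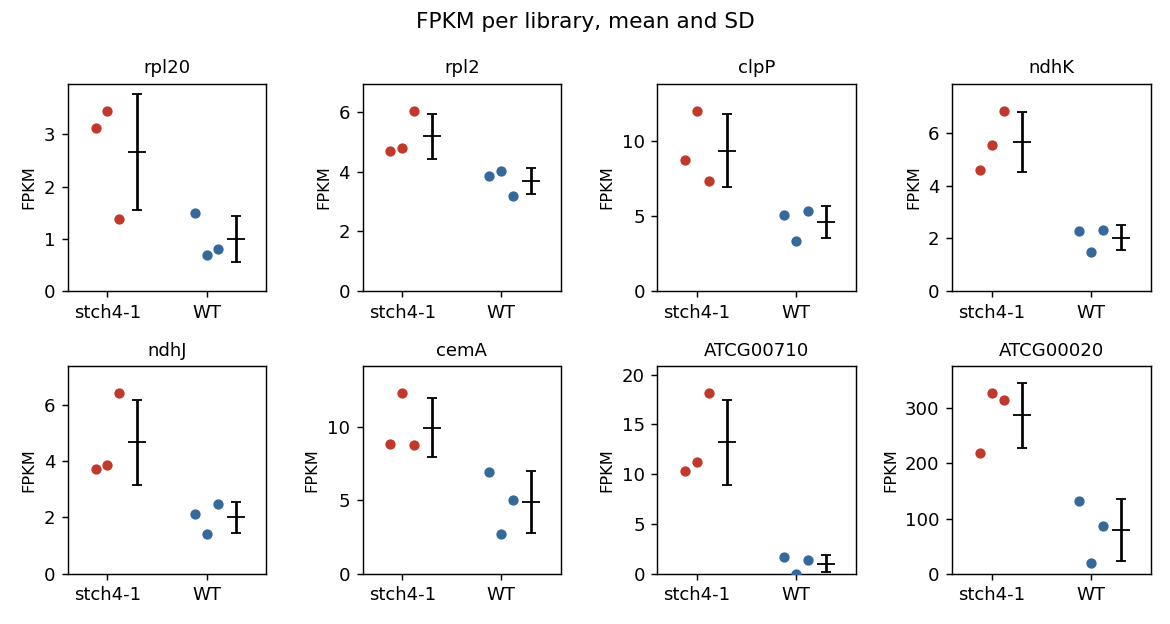
FPKM of the 6 named members and of 2 members known by identifier alone, with a point for each library (stch4-1 left, WT right) and the mean with its SD beside them. Vertical axes start at 0 and differ between genes. Every stch4-1 point is above every WT point except for rpl20, where stch4-1 c (1.39 FPKM) is below WT a (1.501 FPKM).

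Since the plastid members moved together from library to library, they were also compared after the plastid median of each library was taken from the plastid rows. A change in this comparison is relative to the other plastid members and is not a change in level. On this scale 11 members (16.2%) were called lower and 5 (7.35%) higher in stch4-1 by limma at an adjusted p under 0.05, where the same fit called 14.1% of all genes lower and 18.5% higher. The share called lower was thus near the background and the share called higher was below it. The split moved with the settings, to 1 higher and 20 lower of 83 members without the filter and to 1 higher and 8 lower without stch4-1 b. The 5 called higher, with relative log2 fold changes of 0.43 to 1.95, were all called higher as measured too, and included ATCG00020 and ATCG00710. ATCG00020 had a relative log2 fold change of 1.25 (limma adjusted p = 0.039), a call lost without WT c or any 1 of the stch4-1 libraries (adjusted p of 0.055 to 0.096), under quantile normalization (adjusted p = 0.067), without the filter (adjusted p = 0.111) and without the trend (adjusted p = 0.068). ATCG00710 had one of 1.95 (limma adjusted p = 0.00045).

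The 11 members called lower on the relative scale had log2 fold changes as measured from -0.42 to 0.45. In the fit as measured, 1 of them was called higher and 0 lower. Whether any of the 11 is an inverted-repeat copy of another member could not be told from the identifiers. The largest relative differences were in ATCG01300 and ATCG00360. ATCG01300 stood at 4.45, 1.86 and 3.01 FPKM in stch4-1, against 4.77, 3.77 and 4.47 FPKM in WT. The genotypes overlapped in level (limma log2 fold change -0.42, adjusted p = 0.163), and relative to the plastid median the log2 fold change was -1.38 (limma adjusted p = 0.020). Without stch4-1 a, ATCG01300 was called lower as measured (limma log2 fold change -0.65, adjusted p = 0.0315). ATCG00360 stood at 1.55, 0.746 and 2.28 FPKM in stch4-1, against 1.45, 0.993 and 2.68 FPKM in WT, with a relative log2 fold change of -1.05 (limma adjusted p = 0.041). WT b was the lowest WT library in both, and in both it lay within the range of the stch4-1 libraries. Both relative calls depended on single libraries. That of ATCG01300 was lost without stch4-1 c, WT b or WT c (adjusted p of 0.053 to 0.058) and that of ATCG00360 without stch4-1 b or c or WT b or c (adjusted p of 0.051 to 0.130). None of the 6 named members was called on the relative scale, where rpl2 had the lowest log2 fold change at -0.56 (limma adjusted p = 0.144) and ndhK the highest at 0.19 (limma adjusted p = 0.39).

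Genes of the mitochondrial genome, the other organelle genome in the table, showed a like order of libraries. Of 146 such genes, 63 were listed at 0 in all 6 libraries and 12 were tested. Their median was 1.49, 1.69 and 2.27 FPKM in stch4-1 a, b and c, against 1.29, 0.808 and 1.11 FPKM in WT a, b and c, with WT b again the lowest. Limma called 7 of 12 higher and 0 lower, against the 18.5% and 14.0% of all genes tested. At an unadjusted p under 0.05 the counts were also 7 and 0. Their median log2 fold change was 0.64. The count of calls was 3 without WT b, stch4-1 a or stch4-1 b, and 4 without WT a or stch4-1 c. The difference between the plastid and the mitochondrial medians was not tested.

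Nuclear genes that serve the plastid differed in both directions and by small steps. Over 10 lists of such genes, 122 were tested, of which 24 (19.7%) were called higher and 26 (21.3%) lower, where 18.5% of all genes tested were called higher and 14.0% lower. The share called higher was thus near the background, and each list's counts below stand against the same background. The list medians of the log2 fold change lay between -0.32 and 0.24. The difference between these medians and the plastid median was not tested. Of 6 sigma factors, 3 were called lower and 0 higher (4 lower and 0 higher at an unadjusted p under 0.05), and the median log2 fold change was -0.14. The number called lower was 1 when stch4-1 b, WT a or WT c was left out and 2 without stch4-1 a or c. SIG5, a sigma factor known for its response to light and stress, stood at 122, 124 and 120 FPKM in stch4-1, against 145, 144 and 147 FPKM in WT, with no overlap (limma log2 fold change -0.25, adjusted p = 0.00097). All 3 phage-type RNA polymerases were called lower, with a median of -0.32. They include RPOTM, which serves mitochondria, and RPOTMP, which serves both organelles. Limma called 2 of the 3 lower when stch4-1 a, stch4-1 b, WT a or WT c was left out. RPOTMP stood at 2.09, 2.12 and 1.81 FPKM in stch4-1, against 3.22, 2.74 and 3.04 FPKM in WT (limma log2 fold change -0.41, adjusted p = 0.013). The medians of both lists were below 0 under every scaling tried.

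Of 13 proteins associated with the bacterial-type polymerase, 6 were called lower and 1 higher, with a median log2 fold change of -0.18. FLN2, a fructokinase-like protein of that complex, had the largest fall, at 10.2, 10.6 and 9.03 FPKM in stch4-1, against 14.6, 13.2 and 14.1 FPKM in WT (limma log2 fold change -0.45, adjusted p = 0.0026). PTAC7 was the 1 called higher (limma log2 fold change 0.19, adjusted p = 0.0092), a call lost under quantile normalization. Of 21 tested proteins that process or stabilise plastid RNA, 10 were called lower and 0 higher (12 lower and 1 higher at an unadjusted p under 0.05), with a median of -0.12, and 6 were called lower without stch4-1 a or stch4-1 b. RNJ, the plastid ribonuclease J, had the largest fall. It stood at 3.77, 4.11 and 3.83 FPKM in stch4-1, against 6.34, 6.50 and 6.69 FPKM in WT, with no overlap (limma log2 fold change -0.62, adjusted p = 0.00059). The median ran the same way under quantile normalization (-0.21) and upper-quartile scaling (-0.16).

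Nuclear genes for subunits of the photosynthetic complexes were slightly higher or not called. Limma called 4 of 10 photosystem II genes, 3 of 11 photosystem I genes, 3 of 8 genes of Rubisco, cytochrome b6f and ATP synthase, and 1 of 4 NDH genes higher, and 0 lower in each of these 4 lists as deposited, also 0 lower at an unadjusted p under 0.05. Their median log2 fold changes were 0.24, 0.14, 0.14 and 0.08 in that order, and under quantile normalization 0.06, -0.04, -0.04 and -0.04, with 0, 0, 0 and 1 called higher and 0, 3, 1 and 0 called lower. Leaving out any 1 of stch4-1 a, stch4-1 c, WT a and WT c cut the photosystem II count to 1 and the Rubisco, cytochrome b6f and ATP synthase count to 0 or 1, and both were 1 without the filter. The photosystem II count was also 1 without the trend, and 6 without WT b. NDHL, a nuclear subunit of the NDH complex, stood at 233, 236 and 220 FPKM in stch4-1, against 191, 180 and 186 FPKM in WT (limma log2 fold change 0.31, adjusted p = 0.0011). PSBR of photosystem II had the largest rise of these, but its groups overlapped (limma log2 fold change 0.46, adjusted p = 0.037). In their own lists, the largest called rises were those of PSAH2 of photosystem I (limma log2 fold change 0.27, adjusted p = 0.0050) and of the Rubisco small subunit gene RBCS2B (limma log2 fold change 0.27, adjusted p = 0.022). All 3 calls were lost under quantile normalization, and those of PSBR and RBCS2B also when either of stch4-1 a and c or of WT a and c was left out (adjusted p of 0.057 to 0.111).

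Of 34 nuclear genes for plastid ribosomal proteins, 9 were called higher and 1 lower, with a median log2 fold change of 0.07, and 0 higher and 8 lower under quantile normalization, with a median of -0.09. PSRP5, a plastid-specific ribosomal protein, had the largest called rise, at 681, 644 and 675 FPKM in stch4-1, against 538, 569 and 525 FPKM in WT (limma log2 fold change 0.29, adjusted p = 0.0018, and 0.059 under quantile normalization), and PRPS10 was the 1 that fell (limma log2 fold change -0.21, adjusted p = 0.0018). Of 12 genes for the Clp protease and the plastid acetyl-CoA carboxylase, 3 were called higher and 3 lower, with 0 higher and 3 lower under quantile normalization, and 0 to 2 higher when 1 library was left out. CLPP3, a Clp subunit, had the largest rise (limma log2 fold change 0.17, adjusted p = 0.020, lost under both scalings and without stch4-1 a, stch4-1 b or WT c), and BCCP1, the biotin carrier of the carboxylase, the largest fall (limma log2 fold change -0.31, adjusted p = 0.0080).

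The nuclear genes that RefSeq ties to the named plastid members were measured too. The pseudogene copy of ndhJ (AT4G13285) was listed at 0 in all 6 libraries. Of the other 5, which include CLP2 (AT1G12410, cited with clpP), 1 was called, with log2 fold changes from -0.17 to 0.07. It was AT1G16740, called lower and cited with rpl20, at 46.6, 46.5 and 43.8 FPKM in stch4-1, against 54.1, 50.05 and 50.1 FPKM in WT (limma log2 fold change -0.17, adjusted p = 0.027). That call was kept without WT b (adjusted p = 0.038) and lost when any of the other 5 libraries was left out (adjusted p of 0.0501 to 0.074).

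**Figure D5:**
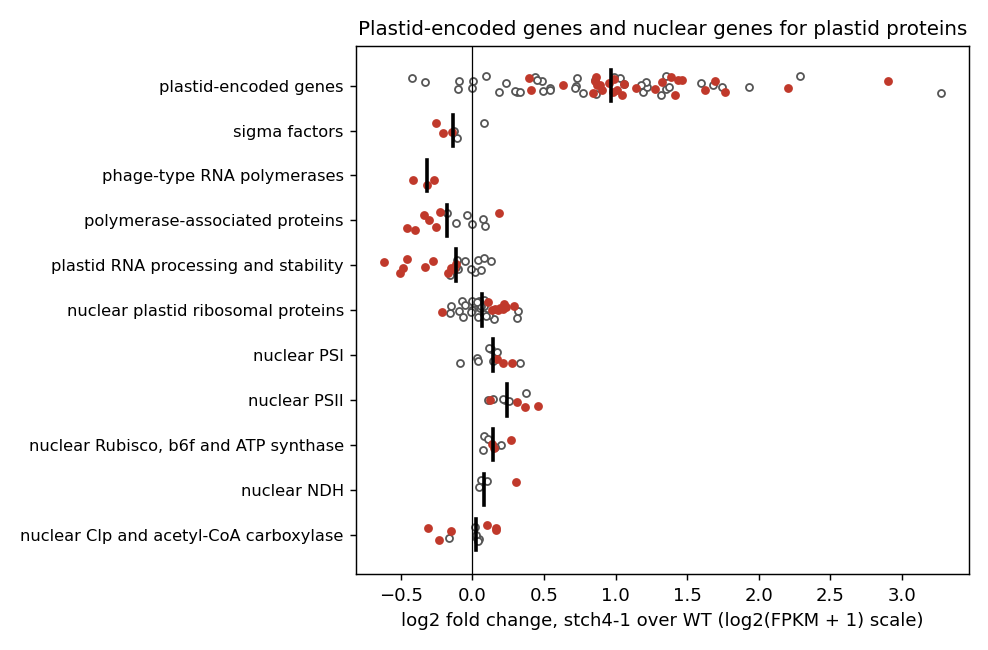
Log2 fold change, stch4-1 over WT, of the 68 tested plastid-encoded genes (top row) and of the 122 tested nuclear genes in 10 lists for plastid proteins, with filled points for genes that passed the test and a bar at each median. The plastid median is 0.97, while the list medians lie between -0.32 and 0.24.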

How the data were processed

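Per the labels' protocols, Illumina libraries were built from DNase-treated Trizol RNA; no selection step is stated. The authors deposited FPKM per gene, made with TopHat2 and Cufflinks on TAIR10, per the submitters' processing notes; versions, strand setting and the treatment of reads with several matches are not given in the sources used. The labels do not say whether samples came from separate cultures, so p-values may measure technical spread only.

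Genes with 1 FPKM or more in at least 3 of 6 libraries were tested as log2(FPKM + 1), which understates changes of low genes, with limma 3.58.1 (R 4.3.3), moderated along the intensity trend, 2-sided, with Benjamini-Hochberg adjustment over all 19289 genes, and tested on simulated data. A second fit subtracted each library's centred plastid median from plastid rows. Relative depth is the commonest ratio to WT a among genes under 0.6 FPKM. Members and lists were chosen with earlier results of these data known. The rule for named members used gene symbols and classes that could not be matched to the identifiers, so 6 members named by the reference are given (1 more is not reported here), with, chosen after values were seen, the called member of highest mean, the largest called rise and the 2 largest called falls relative to the plastid median. Nuclear lists are represented by their largest called rise and fall.

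Alternatives were a pseudocount of 0.1, no filter, a mean of at least 5 FPKM, quantile normalization, upper-quartile scaling, no trend, each library left out, and, added after seeing the data, sums over members above 0 in all libraries. Python 3.11.15 and Biopython 1.88 served for the joins and alignments.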

Additional observations from a re-analysis of the deposited data

How the results depend on the processing

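The plastid count of 27 calls became 11, of 37 tested, under the mean filter of 5 FPKM, and 17 to 41 when 1 library was left out. Under that filter 3409 of all 14489 genes tested were called higher, against 3576 of 19289 in the main fit. With 1 library left out, 2628 to 3260 of the 19289 were called higher. The median log2 fold change was 0.64 to 1.14 with 1 library left out and 0.89 to 1.29 under the other alternatives. Without stch4-1 a, 23 members were called higher and 1 (ATCG01300) lower, the only alternative to call a member lower. The relative count of 16 became 7 under that filter, and 9 to 19 when 1 library was left out. Of the 27 calls, 16 held whichever library was left out, and all 27 stayed positive. The 6280 calls over all genes became 4508 to 5425 with 1 library left out. They split into 3576 higher and 2704 lower, but 2614 higher and 3108 lower under quantile normalization and 2833 higher and 3623 lower under upper-quartile scaling, which moved the plastid count only to 28 and 25. The ratio of summed plastid FPKM was 1.25 to 3.19 with 1 library left out. Without the filter 18 members were called of 83, all higher, where 3263 of all 24648 genes tested were called higher. The calls of cemA, rpl20, rpl2 and ATCG00020 were lost without the filter (limma adjusted p of 0.052 to 0.065).

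Under quantile normalization the log2 fold change was -0.0046 for PSAH2, -0.041 for RBCS2B and -0.091 for CLP2, and -0.017 for CLP2 under upper-quartile scaling. Relative to the plastid median, cemA turned to -0.080 at a pseudocount of 0.1, -0.047 without the filter, -0.28 with a mean of at least 5 FPKM, -0.0036 under quantile normalization and -0.0022 under upper-quartile scaling and rpl20 to 0.12 at a pseudocount of 0.1. None of these values passed the test, and the cause was not tested. With 1 library left out, log2 fold changes spanned 0 for ATCG00360 (-0.31 to 0.15) and CLP2 (-0.021 to 0.057), and relative ones for ndhJ (-0.22 to 0.15), cemA (-0.11 to 0.15), rpl20 (-0.41 to 0.24) and clpP (-0.22 to 0.15).

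No paired analysis was possible because the columns do not carry the replicate numbers of the sample titles. Removal of a length trend, and fits without inverted-repeat and RNA genes or centred on photosynthesis genes, were not run, since the plastid identifiers could not be tied to lengths or classes. Depth limits members near 1 FPKM, where an exact 0 cannot be told from a failed estimate.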
